A study of Mus musculus with 9 samples.

Results

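The genes described here are 37 genes of glucose uptake, glycolysis, lactate handling, pyruvate dehydrogenase control, oxygen sensing and the response to low oxygen, measured by RNA-seq in mouse embryonic fibroblasts, connective tissue cells taken from embryos and grown in a dish. They were taken by gene symbol from a list of such genes, drawn up with earlier results of these data known, out of 16428 genes in the table, and 35 of the 37 had a mean of at least 10 normalized counts over the 9 libraries and entered the test. All cells carried CARM1f/f ER-Cre: Carm1 was flanked by recombination sites, and the Cre enzyme, joined to part of an estrogen receptor, can be switched on by tamoxifen derivatives. The promoter of the Cre transgene is not named in the labels. Carm1 encodes an arginine methyltransferase that modifies histones and transcriptional coactivators. The 3 WT libraries are from untreated cells, the 3 KO libraries from cells given 4-OHT (4-hydroxytamoxifen, which activates the recombinase) at 2 uM, and the 3 CARM1i libraries from cells given TP-064, an inhibitor of the enzyme, at 1 uM, with a culture time of 6 days. No group received 4-OHT without the floxed gene and none is labelled as vehicle, so effects of 4-OHT and of the deletion cannot be told apart, nor can those of TP-064 and of its solvent. Whether replicates were separate cultures is not in the labels. A p-value here therefore rests on the scatter among the sequenced libraries alone, part or all of which could be technical.

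Glycolysis splits glucose to pyruvate through a chain of cytosolic enzymes, many of which exist as isozymes from separate genes. Pyruvate either enters the mitochondrion through pyruvate dehydrogenase or is reduced to lactate and exported. When oxygen is low, the transcription factor HIF1 escapes the prolyl hydroxylases that mark it for degradation and raises transcription of glucose transporters, glycolytic enzymes and other targets through DNA sites with the core ACGTG, and growth factor signalling and glucose itself also act on these genes. Fibroblasts in culture use glycolysis heavily even with oxygen present.

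Reads recovered from the deposited values summed to 28657018 to 35842771 per library. These sums cover only the genes with deposited values and not all reads of a library. Carm1 (chr9:21546894-21592623) had a mean of 1104 ± 34.1 normalized counts in WT (SD, n = 3), 758 ± 43 in KO and 1057 ± 64 in CARM1i. Its log2 change was -0.54 ± 0.06 (SE) in KO (limma, Benjamini-Hochberg adjusted p = 5.49e-07) and -0.06 ± 0.06 in CARM1i (adjusted p = 0.496), and since counting covered the whole gene, these values do not measure the deleted part itself. The fibroblast markers Col1a2, Vim and Pdgfra were abundant in WT (means 79690, 72379 and 38495), but Lum had a WT mean of only 6.74. Of the 9 tested fibroblast markers, 7 fell in KO and 4 in CARM1i (beside 20.5% and 8.59% of all genes). In each comparison 1 rose, Thy1 both times (0.18 in KO and 0.28 in CARM1i, beside 21.4% and 10.5% of all genes that rose). Of 21 listed markers of endothelial, epithelial, macrophage, muscle and neural cells, 11 were tested. KO had 4 of them higher and 3 lower (beside 21.4% and 20.5% of all genes), and CARM1i had 1 higher and 2 lower (beside 10.5% and 8.59%). The summed level of the neural markers was 7518 to 7854 in WT, 5854 to 6183 in KO and 5780 to 6564 in CARM1i. Most of it came from Ncam1 (WT mean 7097), with Nes at 510 and Tubb3 at 109. The summed level of the other 4 cell types stayed at or under 525 per type and library. Epcam, Cdh1, Krt8, Ptprc, Adgre1, Myod1, Myog, Ckm and Sox2 had no values and are not analysed here, and Pecam1 was too low to test. All 6 proliferation markers were lower in KO and in CARM1i (beside 20.5% and 8.59% of all genes), with median log2 changes of -1.09 and -0.48. Their summed level was 36536 to 38082 in WT, 16559 to 17121 in KO and 26682 to 28474 in CARM1i. The part of these shifts in the results that follow was not tested. In bulk RNA, fewer cells of a type and less RNA per cell cannot be told apart. CARM1i replicate 3 stood apart from replicates 1 and 2 on the third principal component (-19.5 against 11 and 11.7). WT replicate 3 also stood apart from WT replicates 1 and 2 on this component (10.3 against -8.65 and -5.68). Calls of the listed glycolysis, lactate and hypoxia response genes that change without either of these libraries are named.

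In KO against WT, 14 of the 35 tested genes rose (40%, beside 21.4% of all 14560 genes tested) and 6 fell (17.1%, beside 20.5%), by limma on log2(normalized count + 1) with a Benjamini-Hochberg adjusted p under 0.05. The genes that rose were led by Eno2, Vegfa, Hk2 and Slc2a1, and the largest change of all was the fall of Txnip. Counted in either direction, these 20 genes are 57.1% of those tested, beside 41.9%. In CARM1i against WT, 7 rose (20%, beside 10.5%) and 4 fell (11.4%, beside 8.59%), or 11 in either direction (31.4%, beside 19.1%). Most changes were small: 4 genes passed with a change of at least 1.5-fold in KO (Hk2, Eno2, Vegfa and Txnip, 11.4% beside 9.86% of all genes) and 1 in CARM1i (Txnip, 2.86% beside 1.93%). The median size of the change, in either direction, was 0.16 on the log2 scale in KO for these genes and 0.18 for all genes, and 0.09 against 0.11 in CARM1i. Their standard errors were smaller than those of all genes (median 0.04 against 0.07), so smaller changes pass the test here. The groups did not overlap for 27 of the 35 genes in KO against WT (beside 52.6% of all genes) and for 16 in CARM1i against WT (beside 33.4%). Median signed changes were 0.13 in KO and 0.05 in CARM1i, with -0.004 and -0.005 for all genes. The comparisons with WT share the 3 WT libraries and are therefore given side by side.

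**Figure D1:**
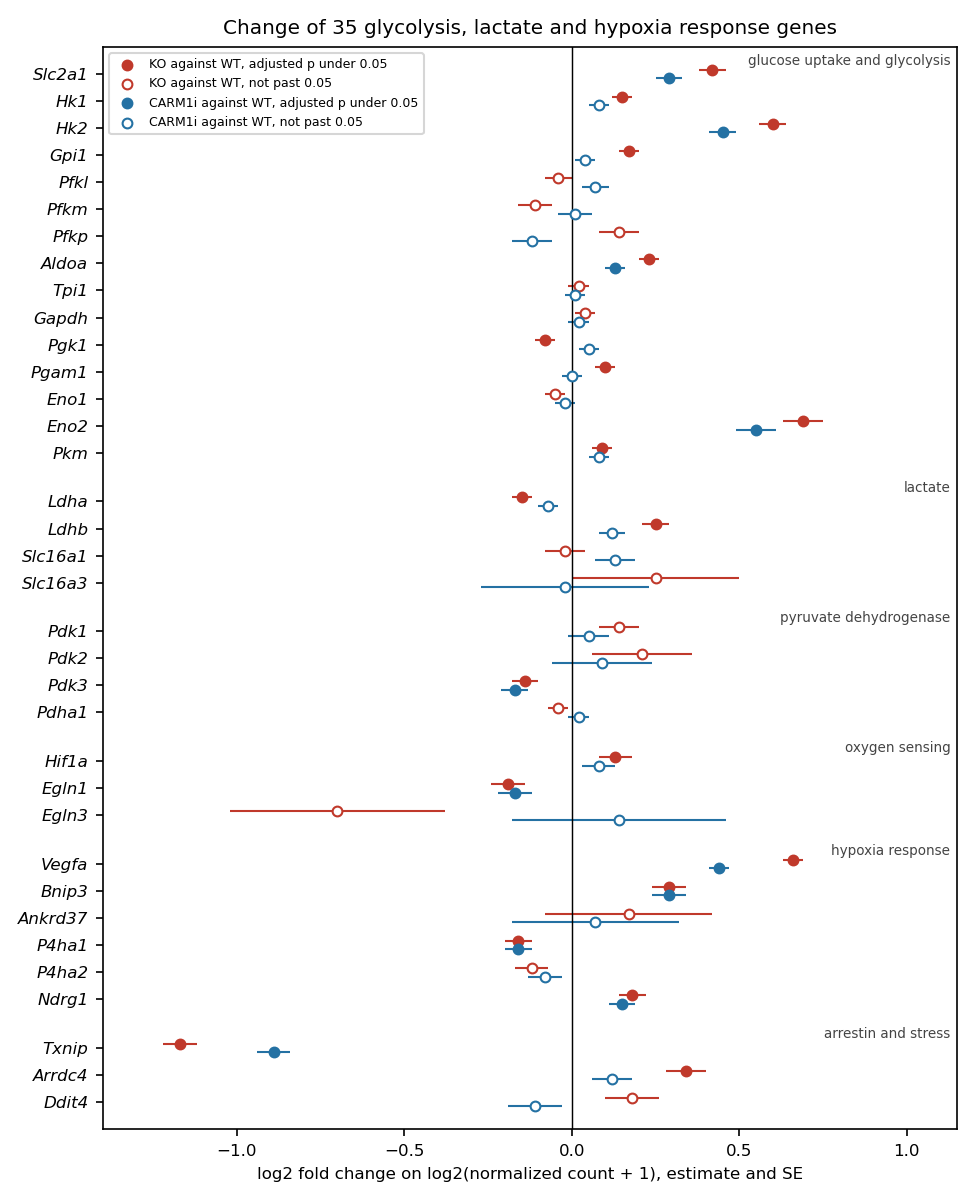
Log2 fold change against WT (x axis, on log2(normalized count + 1)) of the 35 tested genes, grouped by role, with KO in red and CARM1i in blue. Points are estimates, bars are standard errors, and filled points passed an adjusted p of 0.05. Txnip lies far to the left in both comparisons (-1.17 and -0.89), Eno2, Vegfa, Hk2 and Slc2a1 lie to the right, and Tpi1, Gapdh and Eno1 lie near 0.

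Levels were compared between genes as normalized counts per kilobase of annotated exon. This length joins the exons of all annotated transcripts of a gene (4133 bases for Gapdh and 13401 for Pfkp). The order of genes depends on it and was not checked with another length. In WT, pyruvate kinase Pkm was the most abundant at 15112 ± 97.9 per kilobase (SD, n = 3), followed by Aldoa at 8934 ± 95.2, Pgk1 at 8174 ± 45.7 and Pgam1 at 7126 ± 92.8. Ldha (3919 ± 113), Gapdh (3850 ± 66.7) and Tpi1 (3732 ± 67.2) followed at similar levels, which were not tested against each other. The genes that changed most stood lower in this order. Vegfa was at 1690, Txnip at 580, Hk2 at 420, Slc2a1 at 375 and Eno2 at 140 per kilobase, and the lactate exporter Slc16a3 was the lowest of the 35 at 4.89. The 15 glycolytic enzyme genes together took 0.637 to 0.642% of the reads of all genes with deposited values in WT, 0.669 to 0.679% in KO and 0.661 to 0.664% in CARM1i. Every KO and CARM1i library thus lay above every WT library, with a mean of 0.64% in WT, 0.674% in KO and 0.662% in CARM1i. Pkm and Aldoa, with the largest counts of the 15 (WT means 75576 and 26008), weigh most in this sum. The KO change of Pkm was -0.01 with quantile normalization, and Pfkl, Pfkm, Pgk1 and Eno1 had negative KO estimates.

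**Figure D2:**
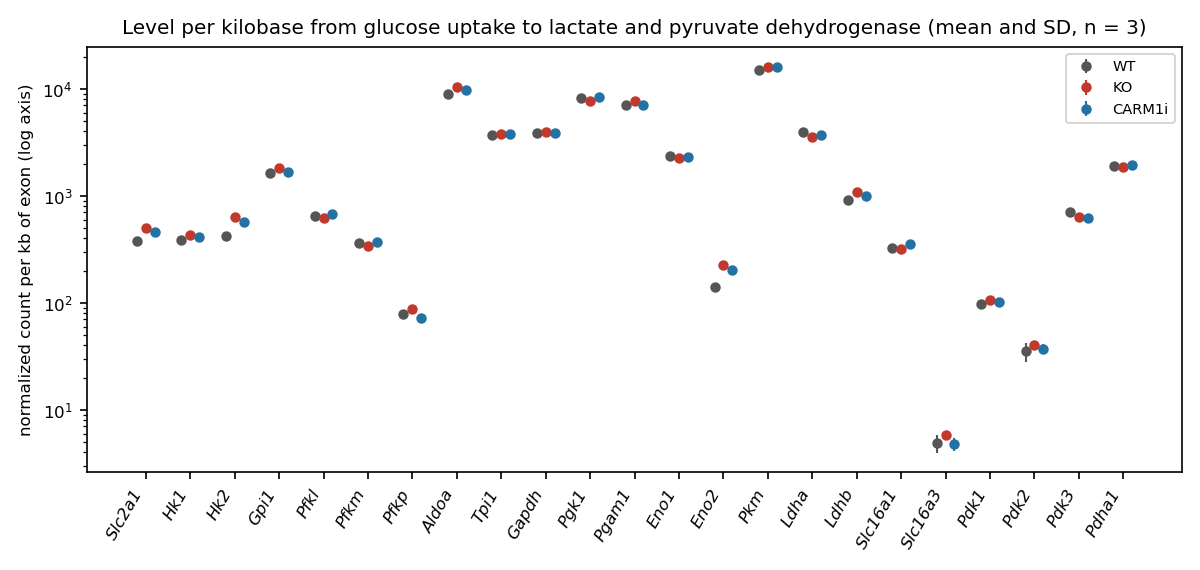
Normalized counts per kilobase of exon (y axis, log scale) of the tested genes from glucose uptake to lactate and pyruvate dehydrogenase, in pathway order, for WT (grey), KO (red) and CARM1i (blue). Points are means of 3 libraries and bars are SDs. Levels run from Slc16a3 (4.89 in WT) to Pkm (15112 in WT), and the groups separate most visibly for Hk2 and Eno2.

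Of the 15 tested genes of glucose uptake and glycolysis, 8 rose and 1 fell in KO (beside 21.4% and 20.5% of all genes), and 4 rose and none fell in CARM1i (beside 10.5% and 8.59%), with median log2 changes of 0.10 and 0.05. Glucose enters fibroblasts mainly through GLUT1, the product of Slc2a1 (chr4:119108711-119137983). Its normalized counts were 1331, 1300 and 1309 in WT, 1716, 1752 and 1805 in KO, and 1533, 1598 and 1696 in CARM1i. The WT libraries lay within a narrow band below all 6 others. Slc2a1 rose 1.34-fold in KO (log2 change 0.42 ± 0.04, limma adjusted p = 5.38e-07) and 1.22-fold in CARM1i (0.29 ± 0.04, adjusted p = 0.000138).

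Hexokinases trap glucose in the cell as glucose 6-phosphate. Hk2 (chr6:82725025-82774454), the inducible form bound to mitochondria, had 2533, 2384 and 2597 counts in WT, 3867, 3767 and 3746 in KO, and 3357, 3429 and 3506 in CARM1i. The 3 groups did not overlap, with CARM1i between WT and KO. Hk2 rose 1.52-fold in KO (0.60 ± 0.04, adjusted p = 5.48e-10) and 1.37-fold in CARM1i (0.45 ± 0.04, adjusted p = 2.27e-07). Hk1, the widely expressed form, had 3326, 3266 and 3369 counts in WT and 3751, 3707 and 3573 in KO, and it rose in KO (0.15 ± 0.03, adjusted p = 0.00199). In CARM1i it had 3414, 3560 and 3522 counts, a change of 0.08 ± 0.03 that missed the threshold (adjusted p = 0.144).

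Upstream sequence of Hk2 and Slc2a1 is shown as examples of genes that rose in both comparisons. Aldoa, Eno2, Vegfa, Bnip3 and Ndrg1 also rose in both. Bnip3 and Ldha, described further on, are shown because a gene that rose and a gene that fell in KO both carry the same core. All stretches shown here hold the core, so they are not a sample of the genes that rose. Sequences are from RefSeq (GRCm38.p6), 5′ to 3′ on the strand of the gene, with capitals marking ACGTG or its reverse complement CACGT; where the reverse complement overlaps the core, the run reads CACGTG. They cover chr6:82774455-82774704 (minus strand) for Hk2, chr4:119108645-119108744 (plus) for Slc2a1, chr7:138909507-138909656 (minus) for Bnip3 and chr7:46845644-46845803 (plus) for Ldha.
Hk2: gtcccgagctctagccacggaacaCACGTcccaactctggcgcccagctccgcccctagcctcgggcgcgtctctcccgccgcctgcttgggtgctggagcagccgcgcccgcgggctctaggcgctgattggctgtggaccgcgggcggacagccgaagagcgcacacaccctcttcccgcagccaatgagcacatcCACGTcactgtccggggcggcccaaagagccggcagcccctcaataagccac
Slc2a1: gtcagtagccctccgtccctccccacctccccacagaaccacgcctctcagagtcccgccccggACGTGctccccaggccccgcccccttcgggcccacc
Bnip3: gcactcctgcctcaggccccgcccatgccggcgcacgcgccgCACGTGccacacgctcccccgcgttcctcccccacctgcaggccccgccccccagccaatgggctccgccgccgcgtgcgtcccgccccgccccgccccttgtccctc
Ldha: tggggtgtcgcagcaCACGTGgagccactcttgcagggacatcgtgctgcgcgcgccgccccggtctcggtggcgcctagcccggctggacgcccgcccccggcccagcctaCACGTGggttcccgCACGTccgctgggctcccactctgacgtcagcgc
The core began 226 and 52 bases before the annotated start in Hk2 and 36 before it in Slc2a1. In RefSeq windows from 250 bases before to 50 after the start, 36 of the 37 genes matched, with 50 promoters. ACGTG stood on either strand of 27 of these 50 (54%), from 25 genes, beside 19.6% of all 32851 promoters in the table. CACGTG, which contains ACGTG, stood in 7 (14%), beside 7.15%. Among tested genes with a promoter, the core was present in 10 of 13 that rose in KO, 5 of 6 that fell and 9 of 15 that did not pass. Here a gene counts if any of its promoters holds the core, so the 19.6% of promoters is not a background for these counts. The share over all genes was not computed. For CARM1i the counts were 5 of 6, 3 of 4 and 16 of 24. Of the 6 that rose in CARM1i, the gene without the core was Eno2, which had the largest rise in both comparisons. A match is a run of letters and does not show binding.

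The next steps of upper glycolysis gave smaller values. Gpi1, glucose-6-phosphate isomerase, had 10713, 10498 and 10294 counts in WT, 11713, 11834 and 11800 in KO, and 10538, 10783 and 11082 in CARM1i. Only the KO libraries stood clear of WT for this gene, and it rose in KO (0.17 ± 0.03, adjusted p = 0.000178) while the CARM1i change was 0.04 ± 0.03 (adjusted p = 0.39). With quantile normalization the Gpi1 change in KO was 0.11 and still passed. Gpi1 shares 741 exon bases with Gm26762 on the opposite strand. Phosphofructokinase, the committed step, is made from Pfkl (liver form), Pfkm (muscle form) and Pfkp (platelet form), and none of the 3 passed the test against WT. Pfkl changed by -0.04 ± 0.04 in KO and 0.07 ± 0.04 in CARM1i (adjusted p = 0.48 and 0.246), and Pfkm by -0.11 ± 0.05 and 0.01 (adjusted p = 0.0798 and 0.913). Pfkp had 1095, 1044 and 1034 counts in WT, 1183, 1204 and 1121 in KO, and 896, 958 and 1069 in CARM1i. Its estimates lay on opposite sides of WT, at 0.14 ± 0.06 (adjusted p = 0.0624) and -0.12 ± 0.06 (adjusted p = 0.177). Pfkp passed in KO without CARM1i replicate 1 or 3 (adjusted p = 0.0415 and 0.0236), with quantile normalization (0.18, adjusted p = 0.021) and in a fit of only the compared groups (0.0225). It passed in CARM1i without CARM1i replicate 3 (-0.19, adjusted p = 0.0206). Pfkm passed in KO without KO replicate 3 (-0.15, adjusted p = 0.0435) or with a common total (-0.13, adjusted p = 0.0453), and Pfkl passed against WT in no alternative. Pfkp shares 748 exon bases with Pitrm1 on the opposite strand. The strand setting of the counting is not given in the sources used here, so how reads in the shared bases were assigned is uncertain.

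Aldoa, the aldolase of most tissues, had 26263, 26048 and 25713 counts in WT, 30528, 29994 and 30890 in KO, and 28654, 28346 and 28634 in CARM1i. The 3 groups were again ordered WT, CARM1i, KO without overlap. Aldoa rose in KO (0.23 ± 0.03, adjusted p = 2.09e-06) and in CARM1i (0.13 ± 0.03, adjusted p = 0.0018). Aldoc, the brain aldolase, was too low to test, at 3.92 to 9.62 counts in WT, 0.954 to 5.4 in KO and 2.14 to 7.09 in CARM1i.

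The central enzymes of the pathway, from Tpi1 to Pgam1, gave estimates of at most 0.10 in size. Tpi1, which interconverts the triose phosphates, changed by 0.02 ± 0.03 in KO (95% interval -0.05 to 0.09) and 0.01 in CARM1i (-0.05 to 0.08). Gapdh, the dehydrogenase often used as a reference gene, had 16094, 16050 and 15596 counts in WT, 16272, 16110 and 16708 in KO, and 16400, 15974 and 15946 in CARM1i. Its changes were 0.04 ± 0.03 (interval -0.02 to 0.10, adjusted p = 0.283) and 0.02 (interval -0.04 to 0.08, adjusted p = 0.739). Gapdh has 73 near-identical genes in the annotation (at least 95% identity over at least 300 bases), 70 of them pseudogenes, so how its reads were assigned is uncertain. Pgk1, phosphoglycerate kinase, had 18234, 18437 and 18357 counts in WT and 17840, 17005 and 17277 in KO, and it fell slightly in KO (-0.08 ± 0.03, adjusted p = 0.0312). That call ended without KO replicate 2 or 3 (adjusted p = 0.135 and 0.0959), without WT replicate 1, 2 or 3 (0.0568, 0.0963 and 0.0545), without the intensity trend (0.0776) and with the replicate block (0.0503), while with quantile normalization the change was -0.16 (adjusted p = 0.000106). Pgk1 had 18917, 18984 and 18912 counts in CARM1i, a change of 0.05 that missed the threshold (adjusted p = 0.285), and 4 near-identical pseudogenes are annotated. Pgam1, phosphoglycerate mutase, rose in KO (0.10 ± 0.03, adjusted p = 0.0109), a call that ended without KO replicate 1 (adjusted p = 0.0552) and with quantile normalization (0.0528), and its CARM1i estimate was 0.00 (adjusted p = 0.959). The near-identical pseudogene Pgam1-ps2 was also counted and could have taken some of its reads.

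Enolase makes phosphoenolpyruvate and is encoded by several isozyme genes. Eno2 (chr6:124760053-124769673), the neuronal form, had 655, 613 and 710 counts in WT, 1001, 1059 and 1120 in KO, and 930, 954 and 1005 in CARM1i. All 6 treated libraries lay above WT, and KO and CARM1i overlapped at their edges. Eno2 rose 1.61-fold in KO (0.69 ± 0.06, adjusted p = 6.88e-08) and 1.46-fold in CARM1i (0.55 ± 0.06, adjusted p = 6.2e-06). Eno1, the ubiquitous form, had 13114, 12571 and 12132 counts in WT, 12208, 11952 and 12306 in KO, and 12469, 12110 and 12753 in CARM1i, so its groups overlapped. Its changes were -0.05 ± 0.03 (interval -0.12 to 0.02) and -0.02 (interval -0.09 to 0.05), and with quantile normalization Eno1 passed in KO (-0.09, adjusted p = 0.0218). The 3 near-identical copies of Eno1 were all in the table and could have taken some of its reads. Eno2, Tpi1 and Gapdh lie within 406 kb of each other on chromosome 6, yet only Eno2 of these 3 passed the test. Pkm, pyruvate kinase, had 75973, 75029 and 75726 counts in WT, 80376, 80185 and 81322 in KO, and 81015, 79501 and 78768 in CARM1i. Pkm rose in KO (0.09 ± 0.03, adjusted p = 0.0142), and its CARM1i change was 0.08 ± 0.03 (adjusted p = 0.0698). The Pkm call in KO ended without KO replicate 3 (adjusted p = 0.0677) or WT replicate 2 (0.0643), and with quantile normalization the estimate was -0.01 (adjusted p = 0.801). In CARM1i Pkm passed without CARM1i replicate 3 (adjusted p = 0.034), with edgeR (0.0395) and with DESeq2 (0.024). Pkm shares 767 exon bases with Gm49759 on the same strand and has the near-identical pseudogene Gm6560. Both of these were also counted, so how reads were assigned to Pkm is uncertain.

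Shares of each isozyme in its family were computed per library from counts per kilobase of exon. They re-express the same counts, so a share also rises when another gene of the family falls. Hk2 made up 51.9 ± 0.715% of hexokinase transcripts (Hk1 and Hk2) in WT (SD, n = 3), 59.6 ± 0.373% in KO and 58.4 ± 0.403% in CARM1i. Eno2 made up 5.65 ± 0.542% of Eno1 and Eno2 in WT, 9.06 ± 0.444% in KO and 8.13 ± 0.232% in CARM1i. This share leaves out the near-identical copies of Eno1 and the third isozyme Eno3. Eno3 was more abundant than Eno2 in WT, KO and CARM1i (686, 526 and 529 per kilobase beside 140, 225 and 205). Ldhb made up 19.1 ± 0.421% of Ldha and Ldhb in WT, 23.6 ± 0.757% in KO and 21.1 ± 0.519% in CARM1i. The Ldhb transcript itself missed the threshold in CARM1i (limma adjusted p = 0.0607). Pdk1 made up 11.6 ± 0.909% of the 4 kinase genes Pdk1 to Pdk4 in WT, 13.6 ± 0.448% in KO and 13.1 ± 0.81% in CARM1i. The Pdk1 transcript itself passed in neither comparison (limma adjusted p = 0.0832 and 0.629), whereas Pdk3 fell in both (-0.14 and -0.17). For these 4 shares every KO and CARM1i library lay above every WT library, and the exact two-sided permutation test gave p = 0.10 for each, the smallest that 3 against 3 libraries allow. Pfkl supplied most phosphofructokinase transcripts in all groups (59.1% in WT, 59.5% in KO and 60.4% in CARM1i), and Pdk3 most pyruvate dehydrogenase kinase transcripts (84%, 81.2% and 81.7%). Which hexokinase is the more abundant depends on the length used, since Hk2 had 36.9% in WT and 44.5% in KO with the longest annotated transcript.

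**Figure D3:**
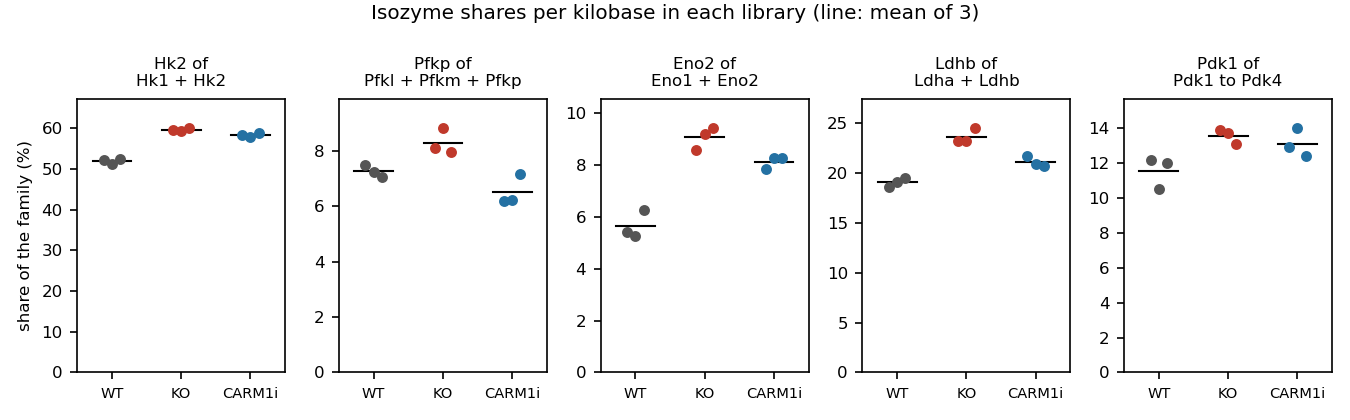
Share of an isozyme in its family (percent, y axis from 0) in each library of WT, KO and CARM1i, from counts per kilobase of exon, for Hk2, Pfkp, Eno2, Ldhb and Pdk1. Points are libraries and lines are means of 3. The share of Eno2 is that among Eno1 and Eno2 and leaves out Eno3. The KO and CARM1i libraries lie above all WT libraries for Hk2, Eno2, Ldhb and Pdk1, and not for Pfkp in CARM1i.

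Lactate dehydrogenase interconverts pyruvate and lactate, and its subunit genes moved in opposite directions in KO. None of the 4 lactate genes passed in CARM1i (beside 19.1% of all genes). Ldha, whose subunit favours lactate formation, had 13308, 13042 and 12570 counts in WT, 12080, 11459 and 11601 in KO, and 12033, 12654 and 12505 in CARM1i. The KO libraries lay below WT without overlap, and Ldha fell in KO (-0.15 ± 0.03, adjusted p = 0.00132). The CARM1i change was -0.07 ± 0.03 (adjusted p = 0.185). Ldhb, whose subunit favours pyruvate formation, had 1446, 1460 and 1442 counts in WT, 1731, 1643 and 1788 in KO, and 1581, 1590 and 1548 in CARM1i. Its groups did not overlap, and it rose in KO (0.25 ± 0.04, adjusted p = 0.000121). In CARM1i the change of 0.12 ± 0.04 missed the threshold (adjusted p = 0.0607) and passed with a mean minimum of 50 (adjusted p = 0.0495) or quantile normalization (0.0461). Of the proton-linked lactate carriers, Slc16a1 (MCT1) had 1412, 1321 and 1570 counts in WT, 1452, 1409 and 1384 in KO, and 1624, 1630 and 1438 in CARM1i, with overlap throughout. Its change was -0.02 ± 0.06 in KO and 0.13 ± 0.06 in CARM1i (adjusted p = 0.858 and 0.167), and it passed in CARM1i without CARM1i replicate 3 (0.19, adjusted p = 0.0288) or WT replicate 3 (0.19, adjusted p = 0.029). Slc16a3 (MCT4), the carrier of highly glycolytic cells, had only 20.3 to 32.4 counts in any library, and a change could not be resolved at this depth (0.25 ± 0.25 in KO, -0.02 ± 0.25 in CARM1i).

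Pyruvate dehydrogenase kinases phosphorylate and switch off pyruvate dehydrogenase, which passes carbon to the citrate cycle. Of the 4 tested genes of this group, 1 fell in each comparison with WT and none rose. Of all genes, 20.5% fell in KO and 8.59% in CARM1i. Pdk3 had 1789, 1850 and 1797 counts in WT, 1631, 1630 and 1665 in KO, and 1625, 1568 and 1634 in CARM1i. It fell in KO (-0.14 ± 0.04, adjusted p = 0.00713) and in CARM1i (-0.17 ± 0.04, adjusted p = 0.00465), with all 6 libraries below WT. Pdk1, a known HIF1 target, had 790, 706 and 782 counts in WT, 855, 839 and 806 in KO, and 784, 829 and 745 in CARM1i. The KO libraries were all above WT, but the change of 0.14 ± 0.06 missed the threshold (adjusted p = 0.0832), and that of CARM1i was 0.05 (adjusted p = 0.629). With quantile normalization Pdk1 passed in KO (0.18, adjusted p = 0.0243). Pdk2 had 95.2 to 137 counts over all 9 libraries and changed by 0.21 ± 0.15 in KO and 0.09 in CARM1i (adjusted p = 0.287 and 0.734). Pdk4 was too low to test, at 3.82 to 14.7 counts. Pdha1, the catalytic subunit of the dehydrogenase, changed by -0.04 ± 0.03 in KO and 0.02 in CARM1i (adjusted p = 0.36 and 0.659). It passed in KO with quantile normalization (-0.09, adjusted p = 0.0116), and it overlaps Map3k15 on the opposite strand over 603 exon bases.

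Hif1a, the oxygen-regulated subunit of HIF1, is controlled mainly as a protein. Its transcript had 6478, 6448 and 6746 counts in WT, 7468, 7024 and 7032 in KO, and 7442, 7130 and 6332 in CARM1i, where replicate 3 lay below every WT library. Hif1a rose in KO (0.13 ± 0.05, adjusted p = 0.034), and the CARM1i change was 0.08 ± 0.05 (adjusted p = 0.239). Without CARM1i replicate 3 the latter was 0.15 (adjusted p = 0.00443). The KO call ended without KO replicate 1 or 3 (adjusted p = 0.145 and 0.0526), without WT replicate 1 or 2 (0.0935 and 0.108), with a common total (0.0617), with quantile normalization (0.214) and without the intensity trend (0.149).

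Egln1 and Egln3 encode PHD2 and PHD3, the prolyl hydroxylases that mark HIF proteins for degradation when oxygen is present. Egln1 had 1563, 1458 and 1438 counts in WT, 1328, 1345 and 1225 in KO, and 1333, 1356 and 1283 in CARM1i. All 6 libraries lay below WT, and Egln1 fell in KO (-0.19 ± 0.05, adjusted p = 0.00403) and in CARM1i (-0.17 ± 0.05, adjusted p = 0.0252). The CARM1i call for Egln1 ended without CARM1i replicate 1 or 3 (adjusted p = 0.0514 and 0.0684), without WT replicate 1 or 2 (0.13 and 0.051) and without the intensity trend (0.0808). Egln3, itself strongly induced by HIF, was low, with 30.1, 31.3 and 17.1 counts in WT, 10.8, 21.2 and 15.3 in KO, and 30.4, 30.5 and 23.5 in CARM1i. Its KO change was -0.70 ± 0.32 (adjusted p = 0.0895), and it passed without KO replicate 2 (-0.93, adjusted p = 0.0456) or WT replicate 3 (-0.97, adjusted p = 0.0274). Its CARM1i change was 0.14 (adjusted p = 0.822).

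Among the genes that respond to low oxygen, Vegfa (chr17:46016993-46032369), the main growth factor for blood vessels, had 7397, 6902 and 7426 counts in WT, 11515, 11469 and 11294 in KO, and 10042, 9553 and 9909 in CARM1i. The 3 groups were fully separate, with CARM1i between the others. Vegfa rose 1.58-fold in KO (0.66 ± 0.03, adjusted p = 3.08e-11) and 1.36-fold in CARM1i (0.44 ± 0.03, adjusted p = 9.18e-08). Bnip3, which promotes removal of mitochondria and carries CACGTG in the stretch shown above, had 1050, 1075 and 1118 counts in WT, 1399, 1272 and 1307 in KO, and 1340, 1343 and 1281 in CARM1i. It rose by the same estimate in both, 0.29 ± 0.05 (adjusted p = 8.79e-05 in KO and 0.000337 in CARM1i). Bnip3 has 5 near-identical genes in the annotation, 1 of them in the table. Among the 5 is the antisense gene Gm45507, which overlaps Bnip3 itself over 504 exon bases and is not a separate copy. Ndrg1, a stress-induced gene of cell differentiation, had 1336, 1330 and 1358 counts in WT, 1515, 1488 and 1543 in KO, and 1489, 1465 and 1498 in CARM1i. It rose in KO (0.18 ± 0.04, adjusted p = 0.00179) and in CARM1i (0.15 ± 0.04, adjusted p = 0.0163), the latter not without WT replicate 2 (adjusted p = 0.063).

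Other oxygen-responsive genes went the opposite way or did not pass. P4ha1, the catalytic subunit of the collagen prolyl hydroxylase, had 4327, 4320 and 4252 counts in WT, 4084, 3853 and 3636 in KO, and 4010, 3871 and 3684 in CARM1i, all 6 below WT. It fell in KO (-0.16 ± 0.04, adjusted p = 0.00523) and in CARM1i (-0.16 ± 0.04, adjusted p = 0.0121), the latter not without the intensity trend (adjusted p = 0.0905). P4ha2, its isozyme, changed by -0.12 ± 0.05 and -0.08 (adjusted p = 0.0586 and 0.271). In KO, P4ha2 passed without CARM1i replicate 3 (adjusted p = 0.0472) or KO replicate 1 (0.0334), in a fit of only the compared groups (0.0493) and with a common total (0.0289). Ankrd37, a small HIF1 target, had 22.9 to 43.5 counts in any library, with changes of 0.17 ± 0.25 and 0.07 that could not be resolved at this depth. Of the 6 hypoxia response genes, 3 rose and 1 fell in KO (beside 21.4% and 20.5% of all genes) and likewise in CARM1i (beside 10.5% and 8.59%).

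Txnip (chr3:96557957-96561883) had the largest change of the 35 tested genes. Its product, an arrestin-like protein, binds thioredoxin and restrains glucose uptake by drawing glucose transporters from the cell surface, and its transcription rises with glucose metabolites through the factors MondoA and ChREBP, which act with Mlx at paired E-box-like sites. Txnip had 1854, 1767 and 1813 counts in WT, 810, 796 and 799 in KO, and 919, 1039 and 969 in CARM1i. The KO libraries lay close together, all below the lowest CARM1i library, and every CARM1i library lay far below the lowest WT library. Txnip fell 2.26-fold in KO (-1.17 ± 0.05, adjusted p = 4.66e-12) and 1.86-fold in CARM1i (-0.89 ± 0.05, adjusted p = 2.54e-09). It overlaps the antisense gene Gm15441 over 606 exon bases.

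Arrdc4 (chr7:68736995-68749241) is the arrestin domain gene closest to Txnip in regulation by MondoA and in its effect on glucose uptake. It had 1979, 1911 and 2196 counts in WT, 2670, 2375 and 2633 in KO, and 2326, 2154 and 2116 in CARM1i. The KO libraries lay above all WT libraries, while CARM1i overlapped WT. Arrdc4 rose 1.26-fold in KO (0.34 ± 0.06, adjusted p = 8.56e-05), the direction opposite to Txnip. Its CARM1i change was 0.12 ± 0.06 (adjusted p = 0.162), and it passed without WT replicate 3 (0.18, adjusted p = 0.0334). Ddit4 (REDD1), a stress-induced inhibitor of mTORC1, had 546, 604 and 708 counts in WT, 678, 721 and 700 in KO, and 545, 551 and 612 in CARM1i. The groups overlapped WT, and the changes were 0.18 ± 0.08 (adjusted p = 0.0803) and -0.11 ± 0.08 (adjusted p = 0.37). In KO, Ddit4 passed without WT replicate 3 (0.28, adjusted p = 0.00581) and with quantile normalization (0.22, adjusted p = 0.0329).

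**Figure D4:**
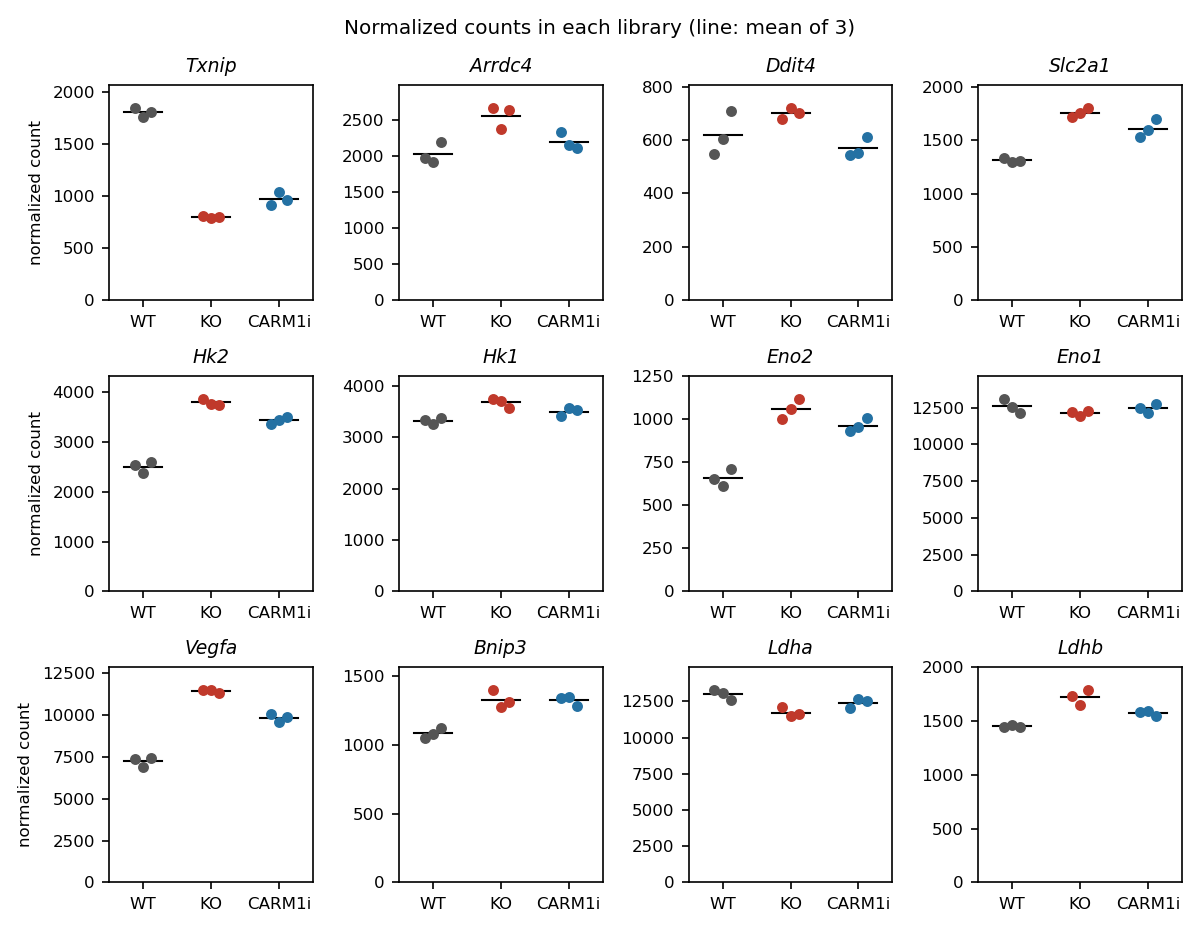
Normalized counts (y axis from 0) of 12 genes in each of the 9 libraries, with lines at the means of 3. Txnip falls in KO and CARM1i while Arrdc4 lies higher in KO, and for Slc2a1, Hk2, Eno2 and Vegfa all KO and CARM1i libraries lie above WT.

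The 250 bases before the start of Txnip and of Arrdc4 are shown because these genes, known for a shared input, changed in opposite directions in KO. They lie at chr3:96557707-96557956 (plus strand) and chr7:68749239-68749488 (minus strand) in RefSeq GRCm38.p6. Capitals mark the E-box CACGTG, its variant with the letters CACGAG, and the CCAAT box, which reads ATTGG on the opposite strand, each searched on both strands.
Txnip: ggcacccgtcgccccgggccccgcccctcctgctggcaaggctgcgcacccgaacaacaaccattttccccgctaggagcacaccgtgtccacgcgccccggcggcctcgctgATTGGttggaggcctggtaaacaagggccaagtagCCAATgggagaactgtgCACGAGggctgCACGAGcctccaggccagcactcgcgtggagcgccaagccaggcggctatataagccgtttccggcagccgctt
Arrdc4: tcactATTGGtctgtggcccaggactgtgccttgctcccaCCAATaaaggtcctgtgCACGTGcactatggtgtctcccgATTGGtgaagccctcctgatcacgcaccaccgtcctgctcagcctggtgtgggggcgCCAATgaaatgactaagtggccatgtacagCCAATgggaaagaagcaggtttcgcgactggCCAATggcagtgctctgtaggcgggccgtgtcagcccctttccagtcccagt
Txnip carried CACGAG at 85 and 74 bases before the start, and a pair with this orientation and spacing was found in 1 of the 32851 promoters (0.00304%), that of Txnip. This motif and the CCAAT box were chosen after the sequence was seen. CACGAG alone stood in 12% of the 50 promoters of these genes and 6.47% of all. CCAAT stood in 44% and 37.4%, and Txnip had it 137 and 102 bases before the start. Arrdc4 had CACGTG 193 bases before the start and 6 matches to CCAAT.

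The direct comparison of CARM1i with KO tests where inhibitor and deletion groups differed. In it 2 genes were higher in CARM1i (5.71%, beside 12.1% of all genes) and 10 were lower (28.6%, beside 11.5%), or 12 in either direction (34.3%, beside 23.6%), and none of them differed by 1.5-fold (3.59% of all genes did). The groups did not overlap for 15 of the 35 genes (beside 36.9%). Vegfa was lower in CARM1i than in KO (-0.22 ± 0.03, adjusted p = 0.000111), Hk2 also (-0.15 ± 0.04, adjusted p = 0.00892), and Txnip was higher (0.28 ± 0.05, adjusted p = 0.000481). For these 3 genes CARM1i lay between WT and KO. Gpi1 (-0.13 ± 0.03, adjusted p = 0.00445), Arrdc4 (-0.22 ± 0.06, adjusted p = 0.00774) and Pfkp (-0.27 ± 0.06, adjusted p = 0.00315) were lower in CARM1i, and Pgk1 was higher (0.12 ± 0.03, adjusted p = 0.0031). Without the intensity trend only 3 of the 10 lower genes (Gpi1, Pfkp and Vegfa) passed, and the losses were Hk2 and Arrdc4 (adjusted p = 0.0503 and 0.0781), and Slc2a1, Aldoa, Pgam1, Ldhb and Ddit4 (0.0894, 0.0615, 0.084, 0.0573 and 0.0719).

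The other differences between CARM1i and KO were less stable. Slc2a1 (-0.13 ± 0.04, adjusted p = 0.0466) lost its call in 12 of 20 alternatives, with an adjusted p of up to 0.197 without CARM1i replicate 1 and of 0.0551 to 0.168 without CARM1i replicate 2, any single KO replicate, or WT replicate 1 or 2. It also missed it with no filter (0.0539), the replicate block (0.055), only the compared groups (0.0615) and DESeq2 (0.0658). Ldhb (-0.13 ± 0.04, adjusted p = 0.0345) missed it without any single CARM1i replicate or KO replicate 1 or 3 (0.0632 to 0.161), with the replicate block (0.0546) and with DESeq2 (0.0537). Pgam1 (-0.09, adjusted p = 0.0236) missed it without CARM1i replicate 1 (0.0908) or KO replicate 1 or 3 (0.101 and 0.0724). Aldoa (-0.09 ± 0.03, adjusted p = 0.0174) missed it without CARM1i replicate 2 or KO replicate 3 (0.0627 and 0.0896). Ddit4 (-0.30 ± 0.08, adjusted p = 0.012) missed it without CARM1i replicate 1 or KO replicate 2 (0.0533 and 0.0551). In the opposite direction, Pfkl passed without CARM1i replicate 3 or KO replicate 1 (adjusted p = 0.0316 and 0.0116), Slc16a1 without CARM1i replicate 3 (0.0127), Ldha without KO replicate 1 (0.0498), and Egln3 without KO replicate 2 or WT replicate 3 (0.0426 and 0.0498). With quantile normalization Pfkl and Ldha passed (0.0325 and 0.0231), and Pfkl also passed with a common total (0.0473), a mean minimum of 50 (0.0488) and edgeR (0.0464). Eno2 (-0.14 ± 0.06, adjusted p = 0.127) and Bnip3 (-0.00, 95% interval -0.11 to 0.10) did not differ past the threshold.

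Other genes of the same pathways, 93 in all of which 75 were tested, give the surroundings. Of the 75, 33 rose and 9 fell in KO, and 15 rose and 9 fell in CARM1i. Of all genes tested, 21.4% rose and 20.5% fell in KO, and 10.5% rose and 8.59% fell in CARM1i. The 75 genes had median log2 changes of 0.10 and 0.01. The pentose phosphate pathway, which branches from glucose 6-phosphate to make NADPH and ribose, had 5 of 8 genes higher and 1 lower in KO (beside 21.4% and 20.5% of all genes), and 3 higher and 1 lower in CARM1i (beside 10.5% and 8.59%). Its entry enzyme G6pdx rose from a WT mean of 2694 to 3494 in KO (0.38, adjusted p = 3.02e-07) and 3238 in CARM1i (0.27, adjusted p = 7.48e-05), and Taldo1 rose from 5861 to 7949 and 7130 (0.44 and 0.28, adjusted p = 1.17e-08 and 1.52e-05). Tkt, which works with Taldo1 in the non-oxidative branch, fell from 6901 to 5600 and 5210 (-0.30 and -0.41, adjusted p = 3.32e-06 and 7.48e-07). Among 13 tested pyruvate and lactate genes, 7 rose and 2 fell in KO, and 3 rose and 1 fell in CARM1i. Bsg, the chaperone that carries lactate transporters to the cell surface, rose from 17353 to 22047 in KO and 18939 in CARM1i (0.35 and 0.13, adjusted p = 1.3e-08 and 0.00331), and its CARM1i call ended with quantile normalization (0.07, adjusted p = 0.0939). Pdp2, a phosphatase that reactivates pyruvate dehydrogenase and so opposes the kinases above, rose from 496 to 671 and 756 (0.44 ± 0.08 and 0.60 ± 0.08, adjusted p = 0.000143 and 1.77e-05), and the malic enzyme Me2 fell from 1799 to 1427 and 1474 (-0.33 and -0.29, adjusted p = 1.9e-06 and 4.58e-05).

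Of 20 other tested glycolysis and glucose genes, 9 rose and 2 fell in KO (beside 21.4% and 20.5% of all genes). In CARM1i 3 rose and 2 fell (beside 10.5% and 8.59%). Eno3, the muscle enolase, fell from 1193 to 914 and 921 (-0.38 ± 0.05 and -0.37 ± 0.05, adjusted p = 7e-06 and 4.04e-05), the direction opposite to Eno2. Bpgm fell from 1068 to 821 and 943 (-0.38 ± 0.06 and -0.18, adjusted p = 3.07e-05 and 0.0331). Pfkfb4, which sets the level of an activator of phosphofructokinase, rose from 289 to 405 and 352 (0.49 ± 0.09 and 0.29, adjusted p = 0.000213 and 0.0314). Ugp2, which makes UDP-glucose, rose in KO and CARM1i (0.17 and 0.18, adjusted p = 0.00197 and 0.0027), and Pgm2, a phosphopentomutase, rose in CARM1i (0.17, adjusted p = 0.0286). Some CARM1i calls rested on single libraries: without CARM1i replicate 3 the adjusted p was 0.136 for Bpgm, 0.115 for Pfkfb4 and 0.097 for Pgm2. Without WT replicate 1 it was 0.0974 for Bpgm and 0.153 for Pfkfb4, without WT replicate 2 it was 0.0788 for Pfkfb4 and 0.13 for Pgm2, and without WT replicate 3 it was 0.11 for Bpgm and 0.0723 for Pgm2. Without the intensity trend it was 0.0834, 0.0663 and 0.063 for Bpgm, Pfkfb4 and Pgm2, and in a fit of only the compared groups 0.0542 for Bpgm and 0.0611 for Pfkfb4. Of 18 other tested hypoxia response genes, 6 rose and 3 fell in KO (beside 21.4% and 20.5% of all genes), and 3 rose and 4 fell in CARM1i (beside 10.5% and 8.59%), with medians of 0.04 and -0.05. Hmox1, heme oxygenase, rose from 5850 to 10785 in KO and 8286 in CARM1i (0.88 and 0.50, adjusted p = 1.07e-11 and 1.94e-07). Bhlhe40, a transcriptional repressor, rose from 1588 to 2459 and 1929 (0.63 and 0.28, adjusted p = 2.82e-09 and 0.000199), and Stc2 from 152 to 255 and 225 (0.74 ± 0.12 and 0.56, adjusted p = 4.86e-05 and 0.0021).

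In the oxygen sensing list 2 of 6 tested genes rose in KO and none fell (beside 21.4% and 20.5% of all genes). In CARM1i 1 rose and 1 fell (beside 10.5% and 8.59%). Arnt2, a partner subunit of HIF proteins, rose from 2578 to 2996 and 3005 (0.22 in each, adjusted p = 0.000292 and 0.000761). Cited2, which competes with HIF1 for the coactivators CBP and p300, rose from 3739 to 4003 in KO (0.10, adjusted p = 0.0443) and fell to 3448 in CARM1i (-0.12, adjusted p = 0.0401), and CARM1i was lower than KO (-0.22, adjusted p = 0.000398). Its KO call ended in 12 alternatives, among them without KO replicate 1, 2 or 3 (adjusted p = 0.157, 0.0569 and 0.0801), CARM1i replicate 2 (0.0517) or WT replicate 2 or 3 (0.076 and 0.203), with the replicate block (0.0609) and with quantile normalization (0.05, adjusted p = 0.342). The CARM1i call of Cited2 ended without CARM1i replicate 1 or 2 (0.132 and 0.0863), KO replicate 2 or 3 (0.0521 and 0.0571) or WT replicate 1 or 2 (0.185 and 0.129), with the replicate block (0.0593), without the intensity trend (0.129) and in a fit of only the compared groups (0.0702). Of the 10 tested glucose response regulators and arrestins, 4 rose and 1 fell in KO (beside 21.4% and 20.5% of all genes). In CARM1i 2 rose (beside 10.5%). Mlx, the DNA-binding partner of MondoA, rose from 992 to 1339 and 1146 (0.43 and 0.21, adjusted p = 4.61e-06 and 0.0131), the direction opposite to Txnip, although the CARM1i call of Mlx ended without CARM1i replicate 2 (adjusted p = 0.08) or WT replicate 1 (0.0541) and without the intensity trend (0.0649). Trp53inp1, a p53 target, rose from 4649 to 7346 and 5242 (0.66 and 0.17, adjusted p = 6.35e-10 and 0.00702), the CARM1i call not without the intensity trend (adjusted p = 0.0806). Sesn1, another p53 target, fell from 280 to 187 in KO (-0.58 ± 0.11, adjusted p = 0.00029), with 243 in CARM1i (-0.21, adjusted p = 0.201).

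**Figure D5:**
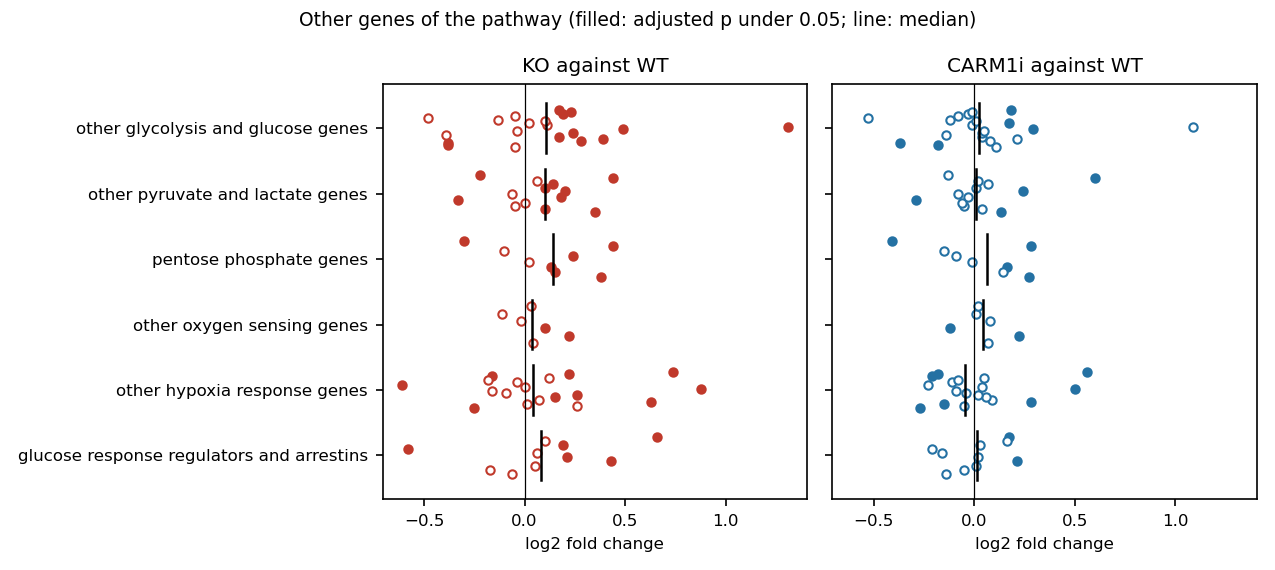
Log2 fold change against WT (x axis, on log2(normalized count + 1)) of the 75 other tested pathway genes by list, for KO (left) and CARM1i (right). Each point is a gene, filled where the adjusted p was under 0.05, and vertical strokes are list medians (0.14 in KO and 0.06 in CARM1i for the pentose phosphate genes). Changes ran from -0.61 to 1.31 in KO and from -0.53 to 1.09 in CARM1i. The rightmost point in each, Pgam2, was singled out after its values were seen and had only 1.96 to 18.1 counts per library.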

How the data were processed

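RNA-seq libraries of 9 samples in 3 groups of 3 were prepared with a stranded mRNA kit, per the labels. TopHat2 2.0.10, HTSeq 0.6.0, DESeq 1.18.0 and mm10 are named per the submitters' processing notes, and for the annotation release and strandedness of counting the status is "not given in the sources used here". As deposited by the authors, the file holds a normalized signal per gene and library, gene read counts divided by size factors. Whole reads were recovered for 100% of values (tolerance 1e-04), and KO replicate 2 has a step too near 1 for an automatic test of this. Of 16428 gene IDs, 16413 matched GENCODE M21. The test was limma 3.58.1 (R 4.3.3) on log2(value + 1) values and with an intensity trend, on which all fold changes are given, with 1 fit over 9 libraries, genes with a mean of at least 10 and Benjamini-Hochberg adjustment over 14560 genes. Values are mean ± SD, and log2 changes ± SE. Folds of low genes are understated on this scale. On recovered reads, edgeR 4.0.16 (quasi-likelihood) called 6150 genes in KO against WT and 2821 in CARM1i against WT, where limma called 6100 and 2784, and DESeq2 1.42.0 called 5650 and 2611. Scripts were tested on simulated data. The genes and lists were chosen with earlier results of these data known. All 37 genes are named, and of each other list the 3 with the smallest adjusted p in each comparison with WT. Of Aldoa, the gene ID with the higher mean was used. The alternatives were other filters, pseudocounts, scalings, fits, count tests, gene lengths and each library left out.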

Additional observations from a re-analysis of the deposited data

How the results depend on the processing

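Over 20 alternatives, 16 of the 20 calls held throughout for KO against WT, 8 of the 11 for CARM1i against WT, and 5 of the 12 for CARM1i against KO. Leaving out each library in turn gave 12 to 15 genes higher and 5 to 7 lower in KO, 6 to 10 higher and 3 to 4 lower in CARM1i, and 2 to 4 higher and 6 to 10 lower in CARM1i against KO. In CARM1i against KO, the number lower was 6 without CARM1i replicate 1 or KO replicate 3 and the number higher was 4 without CARM1i replicate 3 or KO replicate 1. Without the intensity trend, CARM1i had 2 genes lower than WT and 3 lower than KO, and with quantile normalization 4 were higher in CARM1i against KO. Quantile normalization reversed Pkm in KO, to -0.01. The causes were not tested. No scaling moved the median of all genes beyond -0.021. Same-numbered libraries showed no strong shared deviation (correlations -0.087 to 0.0268). Whether equal numbers share a culture or preparation is not in the labels, and the main fit did not pair libraries. With the replicate block, 14 genes were higher and 5 lower in KO, 7 and 4 in CARM1i, and 2 and 8 in CARM1i against KO.

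With the longest annotated transcript in place of all exons, shares in WT, KO and CARM1i were 36.9, 44.5 and 43.2% for Hk2, 67.8, 68 and 69.1% for Pfkl, 25, 23.8 and 24.5% for Pfkm, 3.66, 5.95 and 5.31% for Eno2, 13.5, 17 and 15% for Ldhb, 13.9, 16.1 and 15.7% for Pdk1, and 81.2, 78 and 78.6% for Pdk3. Pdk2 had 5.71% in KO and 5.43% in CARM1i, and Slc16a1 had 97.8 and 98.4%. Depth limits Slc16a3, Egln3, Ankrd37, Aldoc and Pdk4, whose means were lowest.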
